A study of Mus musculus with 24 samples.

Results

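Liver gene expression was compared between mice that drank a sugar drink and mice that drank plain water while both were fed a high-fat diet. The samples were chosen by their labels, with earlier results of these data known. They were 6 titled high fat plus high sugar and 6 titled high-fat, 12 of the 24 samples in the series. All were liver RNA of male C57BL/6J mice aged 16 weeks that had been kept for 10 weeks on their diet and drink. The drink held 23% (w/v) sugar, and the sources used here name neither the sugar nor the make-up of the high-fat diet. The other 12 samples were 6 control mice (normal diet, plain water) and 6 high-sugar mice (normal diet, the same drink) of the same strain, sex and age. They entered the estimate of spread and a direct comparison of the drink's effect on the 2 diets. The labels number the samples of a group from 1 to 6 without stating that each came from its own animal, and the p-values reflect only the variation among these samples, which may in part be technical.

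As background, the liver takes up dietary sugar and turns part of it into fatty acids, a route switched on by the transcription factors SREBP-1c and ChREBP, and stores fatty acids as triglyceride in lipid droplets. A high-fat diet delivers fatty acids directly, which activate PPAR alpha, the regulator of fatty acid burning and of the hormone FGF21. Fat-laden livers can recruit macrophages, produce chemokines and activate stellate cells, the source of scar matrix.

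The array read 45281 probes, and 11115 genes had a named probe that exceeded the noise limit, which lay between intensities of 6.498 and 6.518, on 6 or more of the 24 arrays. Values are the deposited linear intensities, given as the lowest, median and highest of 6 samples, and a log2 difference is that of intensity plus 32, sugar drink minus plain water, with its standard error (n = 6 per group). A fold is that difference turned back to a linear scale. Adjusted p-values come from limma with Benjamini-Hochberg adjustment over all 11115 genes, and "rose", "fell" and "changed" are used for genes with an adjusted p under 0.05. Samples correlated at 0.989 to 0.995 within the high-fat group, 0.988 to 0.994 within the high-fat high-sugar group and 0.975 to 0.986 between them. Of 11 hepatocyte markers measured, all were above the noise limit, their summed intensity ran from 118838 to 136456 with plain water and from 126996 to 139934 with the sugar drink, and Ahsg, a plasma glycoprotein gene, had medians of 27156 and 28329. Single markers did move: 4 of the 11 rose and 2 fell (16.6% and 14.0% of all genes), with log2 differences from -0.43 to 0.79.

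A large share of the liver transcriptome differed between the 2 drinks. With the sugar drink 1841 genes rose (16.6% of those tested) and 1561 fell (14.0%), 3402 in all (30.6%), and 671 of these moved by at least 1.5-fold, 483 up and 188 down. The 6 samples of each group did not overlap at all for 1504 genes (13.5%), 899 higher and 605 lower with the drink. The median log2 difference over all genes was -0.01. The counts of list members given below are to be read against the shares of 16.6% and 14.0%. Without replicate 5 of both groups, which most often lay far from the rest of its group, 1503 genes rose and 1175 fell.

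Different probes of the same gene did not always move together, which limits what a single probe shows. Among 1970 further probes of the changed genes, 798 passed the test as well, and 138 of these (17.3%) moved against the probe reported here. For changes of at least 1.5-fold 15 of 161 passing probes (9.32%) were opposite, and for changes of at least 2-fold 2 of 39 (5.13%). The same count for the high-fat diet against the normal diet, both with plain water, was 2 of 475 (0.421%), and for the drink on the normal diet 122 of 727 (16.8%). The share of opposite probes was thus 16.8% to 17.3% in the comparisons of sugar with water and 0.421% in the comparison that held the drink constant. The cause of this was not tested. The slide of each sample is not known here, so whether drink and slide coincided was not tested either. Where no other probe of a gene named below passed, this is stated beside it. Of the 243 genes with a change of at least 1.5-fold and a further probe, 120 had another probe that passed in the same direction and none against, 14 had one that passed in the opposite direction, and for 109 no other probe passed. Of the 263 members of the gene lists that changed, 5 had a further probe that passed in the opposite direction (Acadl, Atp5a1, Csf1r, Cyp2d22 and Hspd1). The 263 include members with a single kept probe, which cannot disagree. Among all 3402 changed genes, 1353 had a further probe, and 126 of these had one that passed in the opposite direction.

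**Figure D1:**
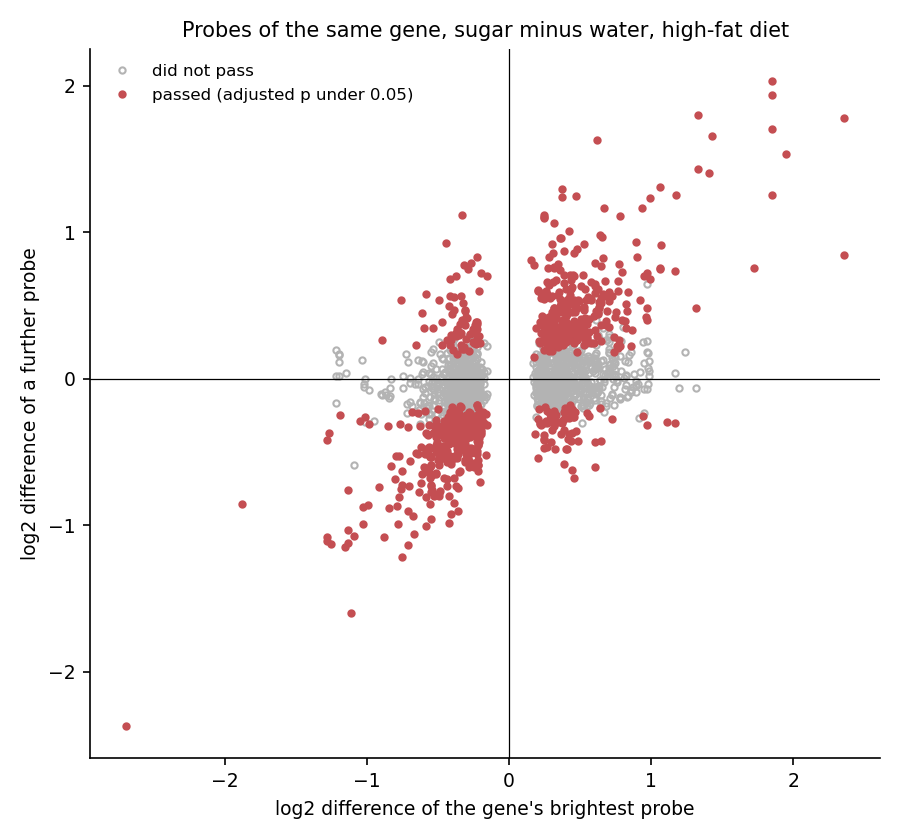
Each point is a further probe of a gene that changed with the sugar drink on the high-fat diet. The log2 difference of that probe (y axis) is plotted against that of the gene's brightest probe (x axis), filled where the further probe passed the test itself. Points in the upper right and lower left move the same way (660 passing probes), and points in the other quadrants move opposite ways (138 passing probes).

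The genes with the steepest rises were led by cytochrome P450 genes of xenobiotic metabolism. Cyp2b9 ran from 22.5 to 2198 (median 886) with plain water and from 2423 to 9227 (median 5269) with the sugar drink, a log2 difference of 2.74 ± 0.60, adjusted p = 0.000897. High-fat sample 5 was far below the other 5 for this gene, and without it the log2 difference was 1.99. Aatk, which encodes a neuronal-type protein kinase, ran from 32.3 to 65.7 (median 61.3) with plain water and from 323 to 575 (median 448) with the sugar drink, so that the lowest sugar sample lay far above the highest water sample, and it had the smallest p of all genes (2.46 ± 0.14, adjusted p = 3.21e-12). Ildr2, an endoplasmic reticulum protein linked in mice to hepatic lipid handling, rose 4.02-fold (adjusted p = 2.07e-08), and Aldh1a1, which makes retinoic acid, 3.52-fold (adjusted p = 3.79e-10). Aacs, which activates ketone bodies for lipid synthesis, ran from 71.6 to 225 (median 139.7) with plain water and from 159 to 835 (median 619) with the sugar drink, overlapping between groups, with a 3.07-fold rise (adjusted p = 4.88e-05). Among the smallest p-values were also Ctsb (cathepsin B, a lysosomal protease, 2.63-fold), the class I histocompatibility gene H2-Q5 (2.11-fold), Tpm2 (a tropomyosin, 2.81-fold), Smim14 (2.05-fold) and Akirin1 (1.91-fold), each higher in all 6 sugar samples than in any water sample. H2-Q5 belongs to a family of near-identical genes whose probes can share signal.

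The steepest fall was that of Eif4ebp3, which encodes a repressor of cap-dependent translation. It ran from 252 to 2806 (median 1335) with plain water and from 50.1 to 153 (median 100.3) with the sugar drink, with no overlap (-2.99 ± 0.38, adjusted p = 1.28e-06). The Ugt1a genes Ugt1a5 and Ugt1a2, whose enzymes attach glucuronic acid, fell 6.48-fold (adjusted p = 5.52e-07) and 6.00-fold (adjusted p = 1.79e-07), and since Ugt1a transcripts share most of their sequence these probes may not be independent. A1bg, a plasma protein gene expressed mainly in female mouse liver, dropped from a median of 112 to 12.5 (-1.88 ± 0.22, adjusted p = 5.52e-07), with no overlap between groups. Cyp17a1, an enzyme of steroid synthesis, fell 3.64-fold (adjusted p = 8.04e-05), and Kiss1, the kisspeptin gene, 3.17-fold (adjusted p = 3.15e-05). Ten1, a telomere-capping subunit, fell 2.63-fold (adjusted p = 1.79e-07), Cib3, a calcium-binding protein gene, 3.22-fold (adjusted p = 0.000870), and Arsg, a lysosomal sulfatase gene, 2.47-fold (adjusted p = 1.03e-05).

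**Figure D2:**
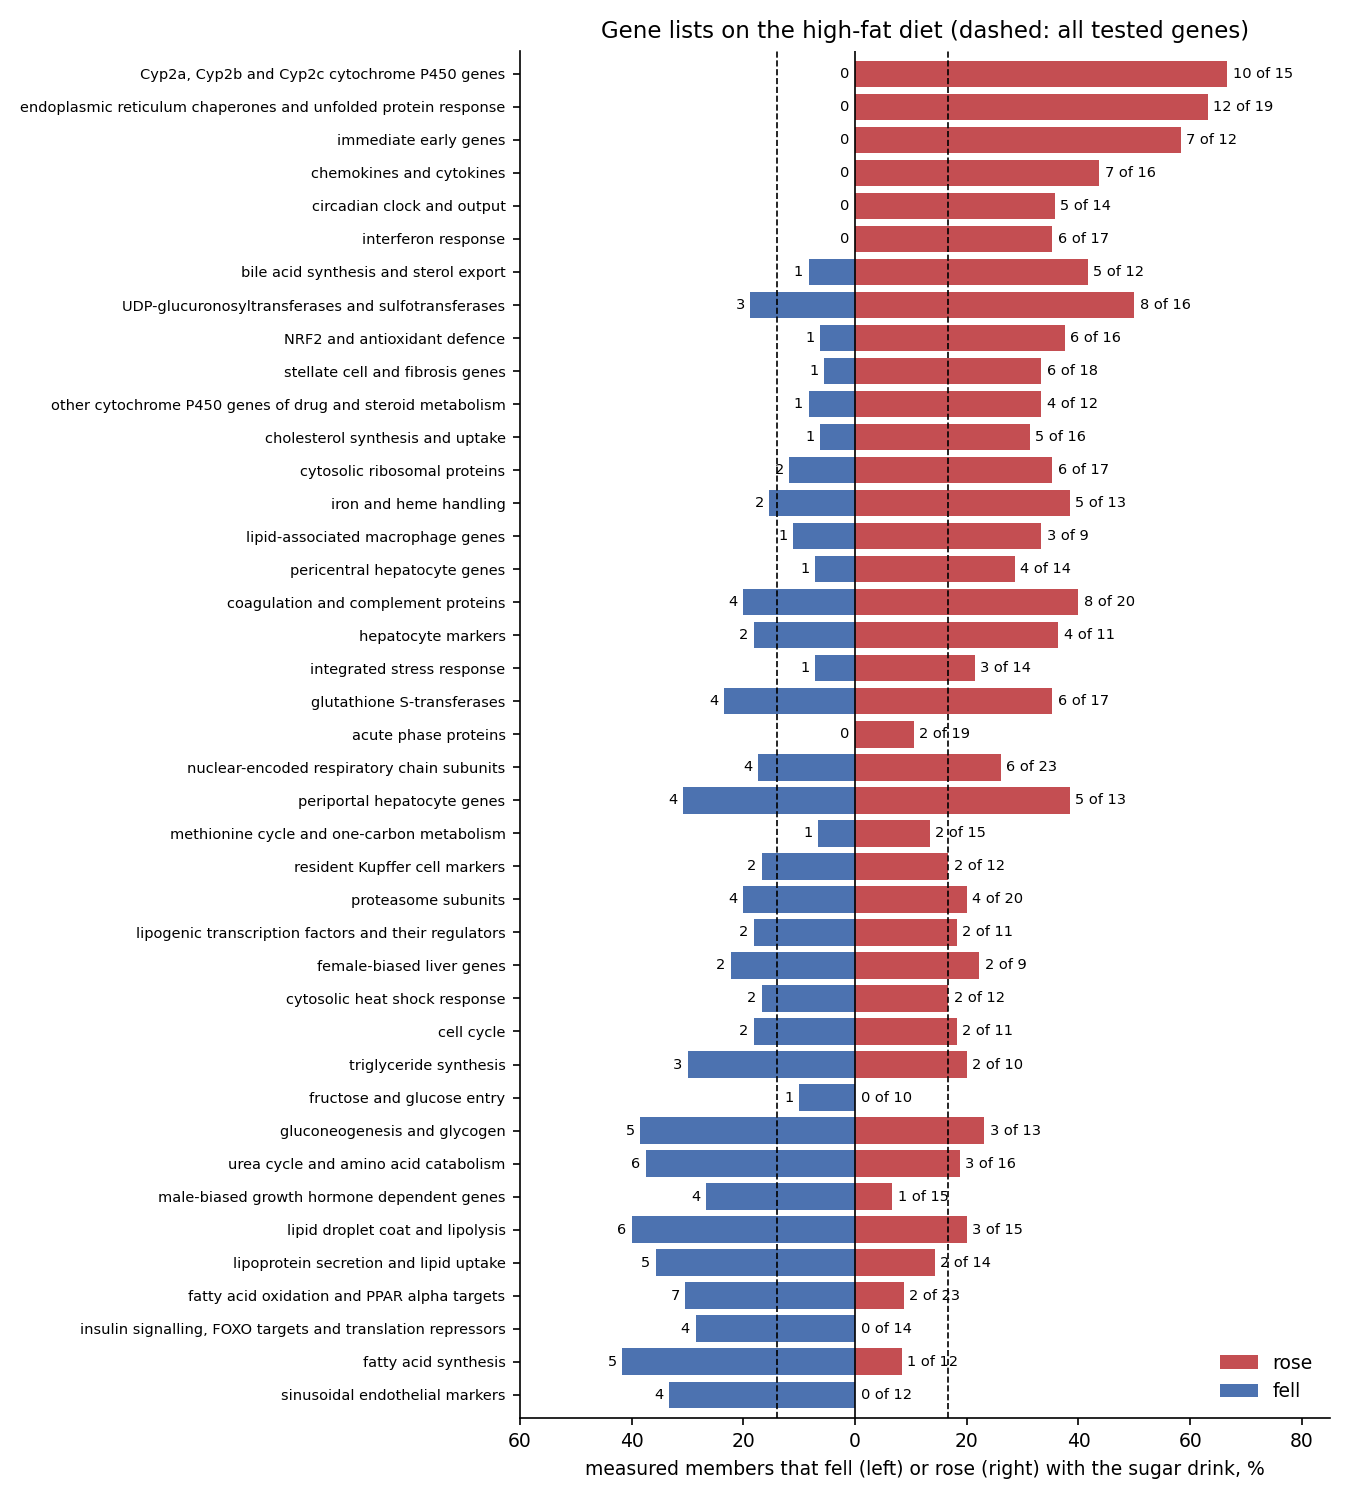
Bars show the percentage of measured members of each gene list that rose (right) or fell (left) with the sugar drink on the high-fat diet at an adjusted p under 0.05, with the counts beside the bars. Dashed lines mark the percentage of all tested genes that rose (16.6) and fell (14.0). Cyp2a, Cyp2b and Cyp2c genes and endoplasmic reticulum chaperones have the longest bars to the right.

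Several genes of fatty acid synthesis and desaturation were lower with sugar. Of 12 measured genes in the pathway 5 fell and 1 rose (14.0% and 16.6% of all genes), with a median log2 difference of -0.14. Scd1, the stearoyl-CoA desaturase that introduces the first double bond into saturated fatty acids, ran from 6252 to 11403 (median 8128) with plain water and from 953 to 3978 (median 2759) with the sugar drink. Every sugar sample was below every water sample (-1.69 ± 0.29, adjusted p = 6.42e-05). Elovl6, which elongates palmitate, ran from 258 to 897 (median 486) with plain water and from 163 to 228 (median 175) with the sugar drink, again without overlap (-1.33 ± 0.20, adjusted p = 1.53e-05). Fads2, the delta-6 desaturase, ran from 2046 to 3389 (median 2707) with plain water and from 1254 to 1469.7 (median 1318) with the sugar drink (-0.996 ± 0.11, adjusted p = 1.67e-07), and its second probe also fell. Acacb, the acetyl-CoA carboxylase of the mitochondrial surface whose product malonyl-CoA holds back fatty acid oxidation, ran from 581 to 789.8 (median 721) with plain water and from 145 to 253 (median 188) with the sugar drink (-1.75 ± 0.14, adjusted p = 2.11e-09), with all 6 sugar samples below all water samples. Fads1, the delta-5 desaturase, fell by less on both of its probes (-0.40 ± 0.09, adjusted p = 0.00100). Elovl5, which elongates polyunsaturated fatty acids, had medians of 12340.0 and 11789 (-0.12 ± 0.10, adjusted p = 0.383).

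The enzymes that supply the pathway with acetyl-CoA and NADPH mostly did not pass the test. Acly, which makes cytosolic acetyl-CoA, ran from 852 to 1204 (median 1007) with plain water and from 1027 to 1503 (median 1231) with the sugar drink (0.26 ± 0.13, adjusted p = 0.128) and overlapped between groups. Acss2, the acetate-activating enzyme, had a log2 difference of 0.00 ± 0.14, adjusted p = 0.985, on its brightest probe. A dimmer second probe of Acss2 fell (-0.29 ± 0.08, adjusted p = 0.00901). The only member to rise was Me1, the malic enzyme that makes NADPH, on a probe near the noise limit (medians 4.66 and 10.0, adjusted p = 0.0278), and it lost the call without high-fat sample 2, 3 or 4 or high-fat high-sugar sample 1, 4 or 5 (adjusted p = 0.0510 to 0.0899). The probe for Fasn, the fatty acid synthase, lay below the noise limit on 11 of these 12 arrays (medians 5.08 and 3.78), so this array gives no value for it. Probes of some other genes known to be abundant in liver, such as Hspa5, were also near the noise limit, and the brightness of a probe is not a measure of the transcript's level.

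Of 11 measured transcription factors and regulators above these enzymes 2 rose and 2 fell. Pparg, which drives lipid storage genes, ran from 147 to 452 (median 225) with plain water and from 413 to 714 (median 563) with the sugar drink (1.07 ± 0.21, adjusted p = 0.000280). Srebf1, the gene of SREBP-1c, ran from 10.5 to 39.9 (median 27.6) with plain water and from 49.6 to 104 (median 83.5) with the sugar drink without overlap (0.93 ± 0.13, adjusted p = 4.95e-06). Both regulators were higher with sugar while Scd1, Elovl6 and Fads2 were lower. Insig2, which holds SREBP in the endoplasmic reticulum, fell (-0.55 ± 0.16, adjusted p = 0.00926), with 1 further probe lower and 1 that did not pass. The other regulator that fell was Lpin1, a phosphatidate phosphatase that also acts with transcription factors in the nucleus, whose groups overlapped (medians 520.4 and 212, -1.09 ± 0.35, adjusted p = 0.0177) and whose second probe did not pass (-0.59 ± 0.28, adjusted p = 0.117), and it lost the call without high-fat sample 6 (adjusted p = 0.0612). Mlxipl, the gene of ChREBP, had medians of 1331 and 1199 and a log2 difference of -0.17 ± 0.12, adjusted p = 0.289. Its second, dimmer probe rose (0.30 ± 0.11, adjusted p = 0.0306), so its direction is uncertain. Of the sugar entry and glycolysis genes, 1 of 10 measured fell and none rose. Khk, the ketohexokinase that traps fructose, had medians of 7282 and 7170.3 (-0.07 ± 0.16, adjusted p = 0.789), and Pklr, the liver pyruvate kinase, 44.1 and 49.2 (0.07 ± 0.12, adjusted p = 0.711). Slc2a2, the GLUT2 transporter gene, gave -0.04 ± 0.17 on its brightest probe (adjusted p = 0.890) and 0.96 ± 0.11, adjusted p = 3.69e-07 on another, so its direction is uncertain. Tpi1, the triose phosphate isomerase, was the member that fell (-0.29 ± 0.08, adjusted p = 0.00459), and its other 2 probes did not pass.

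**Figure D3:**
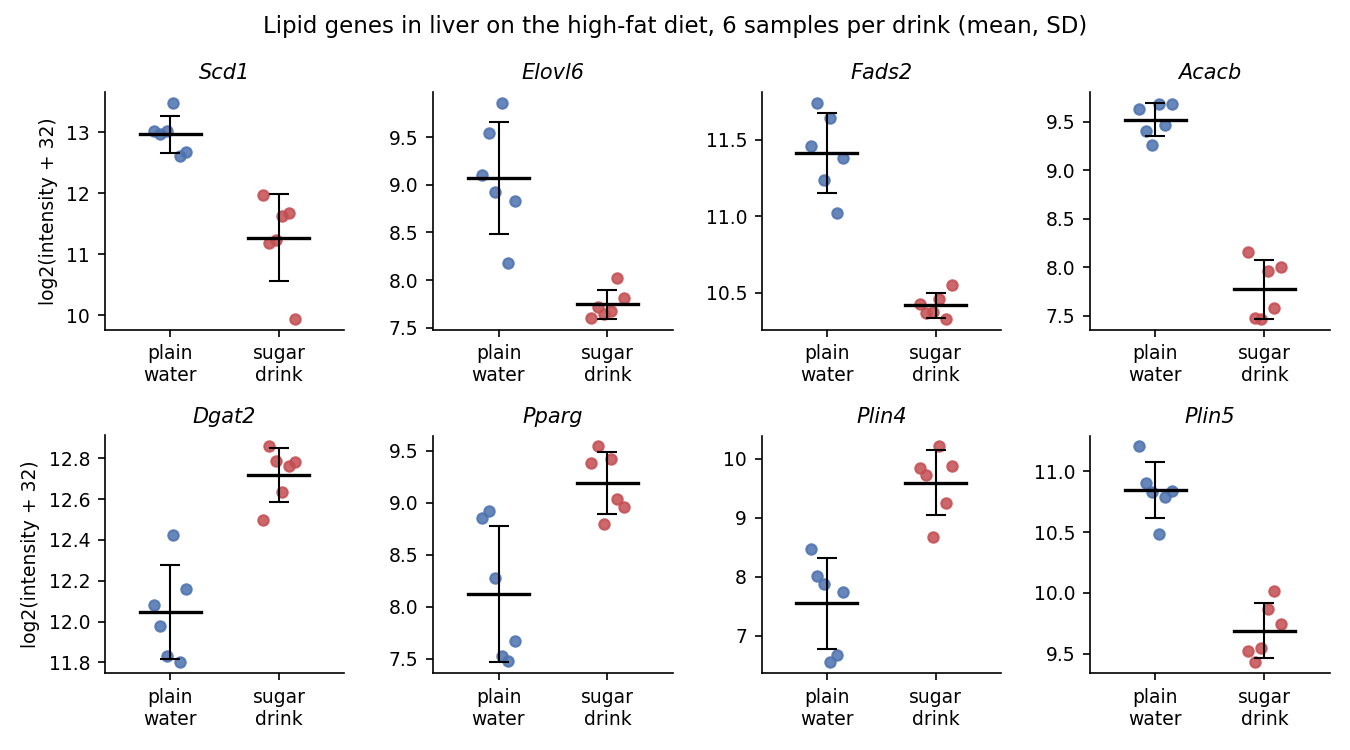
Intensity plus 32 in each sample is plotted on a log2 axis for 8 genes of lipid synthesis and storage in the high-fat group (plain water) and the high-fat high-sugar group, with bars at the group mean of the log2 values and whiskers of 1 SD (n = 6). Scd1, Elovl6, Fads2, Acacb and Plin5 are lower in all 6 sugar samples, Dgat2 and Plin4 are higher in all 6, and Pparg is higher at the mean with overlap.

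Triglyceride synthesis and droplet genes changed in both directions. Dgat2, which adds the last acyl chain of triglyceride, ran from 3533 to 5456 (median 4154) with plain water and from 5742 to 7397 (median 6967) with the sugar drink without overlap (0.67 ± 0.09, adjusted p = 5.35e-06), whereas Dgat1, which carries out the same step, fell (-0.58 ± 0.09, adjusted p = 3.72e-05). Lpin2, a phosphatidate phosphatase gene, fell (-1.02 ± 0.18, adjusted p = 8.50e-05), but of its other 3 probes 1 passed, with a log2 difference of -0.26 ± 0.09, adjusted p = 0.0348. In all 2 of 10 measured triglyceride synthesis genes rose and 3 fell.

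On droplets, the coat protein genes parted. Plin4 ran from 61.6 to 322 (median 192) with plain water and from 378 to 1153 (median 847) with the sugar drink with no overlap (2.04 ± 0.37, adjusted p = 0.000144), and Cidea, a droplet fusion protein gene, rose from a median of 6.21, near the noise limit, to 44.6 (0.94 ± 0.20, adjusted p = 0.000868). Plin5, which ties droplets to mitochondria, ran from 1404 to 2330.0 (median 1794) with plain water and from 657 to 1001 (median 769) with the sugar drink (-1.16 ± 0.16, adjusted p = 5.87e-06), and its second probe fell as far (-1.15 ± 0.13, adjusted p = 3.29e-07). The sugar drink was thus accompanied by more Plin4 and less Plin5 RNA, while Plin2, the general droplet coat gene, had medians of 1622 and 1388 (-0.30 ± 0.12, adjusted p = 0.0611).

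Several genes of triglyceride breakdown were lower. Mgll, the monoacylglycerol lipase, ran from 2020.4 to 3064 (median 2996) with plain water and from 1094 to 1421 (median 1185) with the sugar drink without overlap (-1.13 ± 0.13, adjusted p = 2.64e-07), and both further probes fell. Pnpla2, the adipose triglyceride lipase, ran from 3978 to 4751 (median 4350.0) with plain water and from 2216 to 3156 (median 2699) with the sugar drink, also without overlap (-0.68 ± 0.11, adjusted p = 3.17e-05). G0s2, the inhibitor of that lipase, fell too (-0.54 ± 0.13, adjusted p = 0.00267). Abhd5, its activator, rose by a small amount (0.25 ± 0.08, adjusted p = 0.0205) and lost the call without high-fat high-sugar sample 1 (adjusted p = 0.0596). Pnpla7, a lysophospholipase gene outside these lists, fell 2.59-fold (adjusted p = 6.13e-07). In the droplet and lipolysis list 6 of 15 measured members fell and 3 rose, with a median of -0.30 against -0.01 over all genes. Hilpda, an inhibitor of lipolysis, was among those that fell (-0.64 ± 0.11, adjusted p = 7.72e-05), but its second probe gave 0.13 ± 0.09, adjusted p = 0.299. Cideb, a droplet protein needed for lipid-rich lipoproteins, fell without overlap (-0.36 ± 0.07, adjusted p = 0.000243).

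Lipoprotein genes fell more often than they rose, 5 against 2 of 14 (14.0% and 16.6% of all genes). Apoa4, an apolipoprotein of triglyceride-rich particles, ran from 23557 to 26972 (median 24142) with plain water and from 9484 to 23983 (median 15182) with the sugar drink (-0.71 ± 0.20, adjusted p = 0.00950), and both of its further probes fell. Apoc2, the activator of lipoprotein lipase, ran from 1505 to 2263 (median 1814) with plain water and from 942 to 1177 (median 1089) with the sugar drink without overlap (-0.75 ± 0.12, adjusted p = 1.87e-05). Apoa5, which promotes triglyceride clearance, fell (-0.53 ± 0.11, adjusted p = 0.000877), as did Mttp, which loads lipid onto apolipoprotein B (-0.48 ± 0.13, adjusted p = 0.00474), and Apoe (-0.37 ± 0.06, adjusted p = 2.19e-05). Apob itself had medians of 4147 and 4193 (-0.08 ± 0.10, adjusted p = 0.590). Lpl, the lipoprotein lipase, ran from 569 to 912 (median 597) with plain water and from 623 to 2349 (median 1381) with the sugar drink (0.94 ± 0.20, adjusted p = 0.000576), and Vldlr, the receptor that takes up triglyceride-rich particles, also rose on 2 of its 3 probes (0.66 ± 0.21, adjusted p = 0.0168) and lost the call without high-fat sample 5 (adjusted p = 0.0518). Outside the list, Pltp, the phospholipid transfer protein, ran from 159 to 369 (median 241) with plain water and from 46.6 to 128 (median 60.8) with the sugar drink without overlap (-1.40 ± 0.19, adjusted p = 3.69e-06).

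Fatty acid oxidation genes were lower in 7 of 23 measured cases and higher in 2 (14.0% and 16.6% of all genes). Fgf21, the fasting hormone gene induced by PPAR alpha, ran from 929 to 1656 (median 1121) with plain water and from 397 to 1092 (median 717) with the sugar drink (-0.77 ± 0.21, adjusted p = 0.00674). Crat, carnitine acetyltransferase, ran from 686 to 1387 (median 954) with plain water and from 506 to 588 (median 550.5) with the sugar drink without overlap (-0.77 ± 0.14, adjusted p = 9.91e-05), and both further probes fell. The probe of Cpt1a, the carnitine palmitoyltransferase that admits fatty acids to mitochondria, was dim and went from a median of 34.9 to 7.14 (-0.71 ± 0.11, adjusted p = 1.85e-05). Of the trifunctional protein subunits, Hadha fell (-0.56 ± 0.13, adjusted p = 0.00190) while Hadhb rose (0.85 ± 0.18, adjusted p = 0.000902). Acadm, the medium-chain acyl-CoA dehydrogenase, rose by a small amount (0.25 ± 0.08, adjusted p = 0.0213) and lost the call without high-fat sample 3 (adjusted p = 0.0529). Acot2, a mitochondrial thioesterase, fell on its brightest probe (-1.02 ± 0.21, adjusted p = 0.000411) and not on the other 2. Ppara itself had medians of 91.6 and 82.2 (-0.15 ± 0.10, adjusted p = 0.313), and Cyp4a14, its classic target, 13890.2 and 11776 (-0.23 ± 0.15, adjusted p = 0.255).

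An insulin receptor substrate, an insulin-like growth factor binding protein and a pair of translation repressors were lower. Irs2, the insulin receptor substrate that is raised in fasting, ran from 375 to 822 (median 441) with plain water and from 199 to 258 (median 228) with the sugar drink without overlap (-1.01 ± 0.15, adjusted p = 1.56e-05). Igfbp2, which binds insulin-like growth factors, ran from 4848 to 8099 (median 7717) with plain water and from 2595 to 4311 (median 3161) with the sugar drink (-1.13 ± 0.18, adjusted p = 1.82e-05), and its second probe fell equally. Eif4ebp1, the paralog of Eif4ebp3, fell as well (-0.50 ± 0.10, adjusted p = 0.000537), while Eif4ebp2 had medians of 1065 and 1059.5 (0.04 ± 0.09, adjusted p = 0.811). In that list of insulin signalling, FOXO target and translation repressor genes 4 of 14 fell and none rose.

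Ppargc1a, the coactivator that raises gluconeogenic and mitochondrial genes, ran from 62.6 to 152 (median 112) with plain water and from 28.2 to 72.3 (median 49.0) with the sugar drink (-0.83 ± 0.15, adjusted p = 9.09e-05). Pcx, the pyruvate carboxylase that opens gluconeogenesis, ran from 720.4 to 1103 (median 898) with plain water and from 451 to 575 (median 504) with the sugar drink with no overlap (-0.80 ± 0.11, adjusted p = 2.45e-06). Fbp1, fructose bisphosphatase, fell (-0.45 ± 0.08, adjusted p = 8.08e-05), as did G6pc, the glucose-6-phosphatase that releases glucose (-0.62 ± 0.17, adjusted p = 0.00755). Ugp2, which makes the UDP-glucose used for glycogen, rose without overlap (0.59 ± 0.09, adjusted p = 1.32e-05). Pck1, which encodes the phosphoenolpyruvate carboxykinase of gluconeogenesis, did not pass (-0.08 ± 0.10, adjusted p = 0.587). Of 13 measured genes of gluconeogenesis and glycogen handling together 5 fell and 3 rose.

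Sterol export and some sterol synthesis genes were higher. Abcg5 and Abcg8 encode the paired transporters that together pump sterols into bile. Abcg5 ran from 1844 to 3235 (median 2257) with plain water and from 3159.5 to 3989 (median 3607) with the sugar drink, and Abcg8 ran from 1093 to 1706 (median 1476) with plain water and from 1971 to 2956 (median 2561) with the sugar drink. Both rose (0.62 ± 0.10 and 0.76 ± 0.11, adjusted p = 2.55e-05 and 8.57e-06), and the groups did not overlap for Abcg8. Abcb11, the bile salt export pump, rose without overlap (0.71 ± 0.10, adjusted p = 3.73e-06), and Baat, which conjugates bile acids, rose (0.80 ± 0.13, adjusted p = 5.42e-05). Cyp7a1, the rate-limiting enzyme of bile acid synthesis, had overlapping values with medians of 3797 and 2178 (-0.64 ± 0.38, adjusted p = 0.217). Cyp8b1, the sterol 12-alpha-hydroxylase, fell (-0.45 ± 0.12, adjusted p = 0.00516). Of 12 bile acid and sterol export genes 5 rose and 1 fell. In cholesterol synthesis and uptake 5 of 16 rose and 1 fell (3 and 1 without replicate 5 of both groups), led by Ebp, which isomerises a late sterol intermediate and ran from 553 to 605 (median 579) with plain water and from 922 to 1499 (median 998) with the sugar drink (0.87 ± 0.10, adjusted p = 1.79e-07), and by Msmo1, a sterol methyl oxidase (1.15 ± 0.27, adjusted p = 0.00201). Tm7sf2, a sterol reductase gene, was the member that fell (-0.29 ± 0.09, adjusted p = 0.0115).

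The detoxifying P450 genes of the Cyp2 family moved one way where they changed. Of 15 measured Cyp2a, Cyp2b and Cyp2c genes 10 rose and none fell, with a median log2 difference of 0.77. Cyp2a5, a coumarin hydroxylase gene, ran from 1877 to 2995 (median 2411) with plain water and from 6624 to 11621 (median 9309.6) with the sugar drink (1.85 ± 0.16, adjusted p = 5.60e-09), and all 4 of its further probes rose by 1.25 to 2.03. Cyp2c50 ran from 379 to 615 (median 495) with plain water and from 1559 to 3292 (median 1921) with the sugar drink (2.01 ± 0.16, adjusted p = 1.48e-09) and Cyp2c37 from 1656 to 2134 (median 1972) with plain water and from 3800.2 to 7291 (median 4646) with the sugar drink (1.33 ± 0.13, adjusted p = 4.92e-08), both without overlap. Cyp2b13, a Cyp2b9 relative, was above the noise limit on 1 of 6 water arrays and on all 6 sugar arrays, with medians of -0.619 and 153 (2.40 ± 0.35, adjusted p = 7.62e-06). With dim values on 1 side, its log2 difference depended on the offset and was 1.71 to 3.21 with offsets of 64 and 16. Cyp2b23 rose with overlapping ranges, from a median of 122 to 692 (2.16 ± 0.45, adjusted p = 0.000607). Cyp2b10, the usual readout of the receptor CAR, was on no water array above noise and on 4 sugar arrays, at least 1.39-fold higher (adjusted p = 0.0104), and its second probe gave 0.11 ± 0.07, adjusted p = 0.220. Members of these families are near-identical in sequence, and which of them a probe reads is uncertain.

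Of 12 other P450 genes of drug and steroid metabolism 4 rose and 1 fell. Cyp1a2, a target of the aryl hydrocarbon receptor, ran from 1307 to 2216 (median 1768) with plain water and from 2809 to 4512 (median 4198) with the sugar drink without overlap (1.18 ± 0.12, adjusted p = 5.12e-08). Cyp3a11, the usual readout of the receptor PXR, had medians of 7118 and 7004 (0.03 ± 0.22, adjusted p = 0.937), and Cyp2e1, the ethanol-oxidising P450, 16299 and 17085 (0.06 ± 0.06, adjusted p = 0.465). Nr1i3, the gene of CAR, rose (0.42 ± 0.13, adjusted p = 0.0136), but of its 4 further probes 1 passed. Nr1i2, the gene of PXR, rose (0.37 ± 0.11, adjusted p = 0.0127) and lost the call without replicate 5 of both groups.

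Conjugating enzymes split by gene. Of 17 glutathione S-transferase genes 6 rose and 4 fell. Gsta1 was above noise on 1 of 6 water arrays and all sugar arrays, with medians of 2.76 and 113 (2.36 ± 0.30, adjusted p = 1.20e-06), and its 2 further probes also rose. Its log2 difference was 1.69 to 3.08 with offsets of 64 and 16. Gstt3 ran from 63.3 to 137 (median 103) with plain water and from 168 to 487 (median 412) with the sugar drink without overlap (1.53 ± 0.20, adjusted p = 1.78e-06), and Gsta4, which clears lipid peroxidation products, rose 2.00-fold (adjusted p = 7.76e-05). Gstt2 (-0.55 ± 0.12, adjusted p = 0.000621) and Gstm6 (-0.49 ± 0.14, adjusted p = 0.00783) fell on each of their probes. Of 16 glucuronosyltransferase and sulfotransferase genes 8 rose and 3 fell. Ugt2b36 ran from 5287 to 7763 (median 6535) with plain water and from 10113 to 12590.2 (median 11724) with the sugar drink (0.84 ± 0.08, adjusted p = 2.07e-08), Sult2a8, a bile acid sulfotransferase gene in mouse liver, rose 2.42-fold (adjusted p = 4.72e-06) and Sult1c2 2.24-fold (adjusted p = 3.78e-05). Ugt1a10 (1.53-fold up, adjusted p = 2.29e-07, with 1 of 3 further probes passing), Ugt3a2 (1.55-fold up, adjusted p = 1.78e-06) and Ephx1, the microsomal epoxide hydrolase (1.54-fold up, adjusted p = 0.000168) also rose. Since Ugt1a transcripts share most of their sequence, the Ugt1a10 probe may read other Ugt1a transcripts as well.

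Among 16 antioxidant genes 6 rose and 1 fell. Gclm, the modifier subunit of the enzyme that starts glutathione synthesis, ran from 240.2 to 345 (median 289) with plain water and from 522 to 766 (median 618) with the sugar drink without overlap (1.02 ± 0.09, adjusted p = 1.98e-08). Cat, catalase, rose on 1 of its 2 probes (0.66 ± 0.11, adjusted p = 7.76e-05), and Prdx1, a peroxiredoxin, rose without overlap (0.33 ± 0.06, adjusted p = 0.000250). Nfe2l2, the gene of NRF2, rose on a dim probe (0.50 ± 0.11, adjusted p = 0.000706), and Keap1, the gene of its inhibitor, fell (-0.32 ± 0.06, adjusted p = 0.000297), although only 2 of its 4 further probes passed, both lower. Sod2, the mitochondrial superoxide dismutase, rose (0.51 ± 0.07, adjusted p = 2.41e-06). The classic NRF2 targets Nqo1 (0.25 ± 0.11, adjusted p = 0.0988) and Hmox1 (-0.02 ± 0.17, adjusted p = 0.954) did not pass.

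Chaperones of the endoplasmic reticulum, which fold secreted proteins and are induced by the sensors ATF6 and IRE1, were higher as a group: 12 of 19 measured rose and none fell, with a median of 0.38. Hsp90b1, the chaperone GRP94, ran from 209 to 449.98 (median 254) with plain water and from 536 to 1100.0 (median 677) with the sugar drink without overlap (1.26 ± 0.18, adjusted p = 7.53e-06). Calr, the calcium-binding lectin chaperone calreticulin, ran from 235 to 647 (median 322) with plain water and from 596 to 985 (median 738) with the sugar drink (0.96 ± 0.19, adjusted p = 0.000268). Dnajb9, a co-chaperone, ran from 3.87 to 20.2 (median 9.30) with plain water and from 35.9 to 113 (median 56.0) with the sugar drink, again without overlap (1.10 ± 0.13, adjusted p = 5.52e-07). For these genes the sugar samples were higher than the water samples, apart from an overlap for Calr. Sdf2l1 (0.93 ± 0.28, adjusted p = 0.0136), the disulfide isomerase genes Pdia3 (0.44 ± 0.13, adjusted p = 0.0142), Pdia4 (0.43 ± 0.13, adjusted p = 0.0137), Pdia6 (0.52 ± 0.09, adjusted p = 0.000138) and P4hb (0.24 ± 0.08, adjusted p = 0.0233) and the degradation genes Herpud1 (0.37 ± 0.14, adjusted p = 0.0380), Sel1l (0.52 ± 0.11, adjusted p = 0.000530) and Syvn1 (0.48 ± 0.14, adjusted p = 0.00951) rose by less. Hyou1 was above noise on no water array and 4 sugar arrays, at least 1.11-fold higher (adjusted p = 0.00143). The second probe of Herpud1 gave 1.29 ± 0.18, adjusted p = 5.96e-06 and that of Sel1l 0.02 ± 0.09, adjusted p = 0.889. P4hb lost the call without high-fat sample 1 or 6 or high-fat high-sugar sample 2, 5 or 6 (adjusted p = 0.05005 to 0.0612), and Herpud1 lost the call without high-fat sample 1, 2, 3 or 5 or high-fat high-sugar sample 2, 4, 5 or 6 (adjusted p = 0.0534 to 0.102). The probe of Hspa5, the master chaperone BiP, was at the noise limit (medians 2.31 and 4.31) and says nothing about that gene. Xbp1, the target of IRE1, had medians of 3765 and 4651 (0.22 ± 0.11, adjusted p = 0.117).

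ATF6 is known to act through the endoplasmic reticulum stress element, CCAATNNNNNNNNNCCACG, whose ends bind NF-Y and ATF6. RefSeq promoters on GRCm38.p6 (250 bases before to 50 after the start) were searched for it on both strands. It occurs in 39 of 32851 promoters (0.119%), and in 7 of the 17 chaperone list members with a promoter entry. Of those 7, 4 rose, Dnajc3 and Creld2 did not pass, and Hspa5 has no usable value here. The second probe of Creld2 did rise (0.64 ± 0.22, adjusted p = 0.0277), so its probes disagree. Of the 10 members without it 7 rose. Of the 8976 tested genes with a promoter entry, 14 hold it in this window, of which 5 rose and 2 fell. The 5 are the 4 list members already counted and Derl3. The promoters of the 4 members that hold it and rose are shown 5′ to 3′ in the direction of the gene, with each match in capitals (a match to the reverse strand begins with CGTGG). They lie at chr10:86705395-86705694 (minus strand) for Hsp90b1, chr8:84846882-84847181 (minus strand) for Calr, chr12:17266339-17266638 (plus strand) for Pdia6 and chr19:6046326-6046625 (plus strand) for Syvn1. A match describes the letters of the window and is not evidence of binding in these livers.
Hsp90b1: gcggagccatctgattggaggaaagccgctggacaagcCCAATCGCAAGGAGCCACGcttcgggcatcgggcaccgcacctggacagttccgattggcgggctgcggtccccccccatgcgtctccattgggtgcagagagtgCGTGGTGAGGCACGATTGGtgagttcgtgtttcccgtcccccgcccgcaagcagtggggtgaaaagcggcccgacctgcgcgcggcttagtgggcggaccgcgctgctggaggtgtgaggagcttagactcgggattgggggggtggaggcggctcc
Calr: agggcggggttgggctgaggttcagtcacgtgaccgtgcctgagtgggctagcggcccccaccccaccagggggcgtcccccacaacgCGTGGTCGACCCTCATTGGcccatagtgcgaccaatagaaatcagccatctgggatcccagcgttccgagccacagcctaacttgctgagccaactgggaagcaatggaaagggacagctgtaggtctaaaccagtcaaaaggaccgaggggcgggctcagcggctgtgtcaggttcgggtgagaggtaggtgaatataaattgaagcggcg
Pdia6: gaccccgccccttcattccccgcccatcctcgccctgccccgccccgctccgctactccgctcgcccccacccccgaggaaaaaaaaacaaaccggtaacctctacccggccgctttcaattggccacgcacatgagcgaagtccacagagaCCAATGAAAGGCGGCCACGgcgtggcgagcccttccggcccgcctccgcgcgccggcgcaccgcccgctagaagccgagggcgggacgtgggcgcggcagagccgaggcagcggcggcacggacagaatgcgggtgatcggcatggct
Syvn1: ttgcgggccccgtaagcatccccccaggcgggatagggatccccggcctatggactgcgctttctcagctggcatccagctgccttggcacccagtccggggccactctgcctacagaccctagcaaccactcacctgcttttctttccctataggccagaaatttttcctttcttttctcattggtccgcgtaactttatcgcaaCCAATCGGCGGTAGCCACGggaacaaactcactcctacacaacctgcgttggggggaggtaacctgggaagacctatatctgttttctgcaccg

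The Hsp90b1 promoter holds 2 matches and those of Calr, Pdia6 and Syvn1 hold 1 each. The matches begin within 44 to 212 bases before the annotated start. Of the PERK branch and its integrated stress response, 3 of 14 genes rose and 1 fell (1 and 2 without replicate 5 of both groups). Atf3, a stress-induced repressor, was above noise on no water array and on all 6 sugar arrays, at least 1.35-fold higher (adjusted p = 8.54e-06). Atf5 fell without overlap (-0.49 ± 0.11, adjusted p = 0.000884), and Ddit3, the gene of CHOP, had medians of 274 and 309.8 (0.08 ± 0.19, adjusted p = 0.785) on its brightest probe and 0.56 ± 0.10, adjusted p = 9.71e-05 on the other.

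Immediate early genes, which respond within minutes to growth factors and stress, rose in 7 of 12 measured cases and fell in none. Jun ran from 45.3 to 84.6 (median 63.98) with plain water and from 125 to 239 (median 164) with the sugar drink without overlap (1.04 ± 0.13, adjusted p = 1.33e-06), and Egr1 from 58.3 to 303 (median 82.3) with plain water and from 127 to 589 (median 332) with the sugar drink (1.44 ± 0.34, adjusted p = 0.00166). Fos was above noise on no water array and on 5 sugar arrays, at least 1.48-fold higher (adjusted p = 1.18e-05). Dusp1, a phosphatase that shuts off stress kinases, and Mcl1, a survival factor gene, rose without overlap (0.78 ± 0.18, adjusted p = 0.00166 and 0.70 ± 0.13, adjusted p = 0.000185). The time of day and the delay before freezing are not given in the sources used here. Clock genes rose in 5 of 14 cases, and in 2 of 14 without replicate 5 of both groups, against 16.6% of all genes. Bhlhe40, a clock repressor gene, ran from 1.64 to 20.3 (median 11.8) with plain water and from 51.8 to 146 (median 81.1) with the sugar drink (1.51 ± 0.20, adjusted p = 2.19e-06), and Per2, a core clock repressor, rose with overlapping ranges (0.72 ± 0.16, adjusted p = 0.000797) on 2 of its 3 probes. Dbp (0.53 ± 0.15, adjusted p = 0.00858) and Usp2 (0.63 ± 0.19, adjusted p = 0.0116, on 2 of 3 probes), outputs of the clock, rose with overlapping ranges, and both lost the call without replicate 5 of both groups.

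Genes of inflammation rose in part. Of 16 chemokine and cytokine genes 7 rose and none fell (16.6% and 14.0% of all genes). Ccl4, which draws in macrophages and T cells, ran from 6.22 to 44.2 (median 27.6) with plain water and from 52.3 to 288 (median 175) with the sugar drink without overlap (1.72 ± 0.26, adjusted p = 1.53e-05). Il1b, the interleukin 1 beta gene, ran from 29.3 to 94.4 (median 75.7) with plain water and from 76.2 to 300.4 (median 192) with the sugar drink (1.01 ± 0.22, adjusted p = 0.000921). Dimmer probes for Ccl3 (0.49 ± 0.14, adjusted p = 0.00716) and Ccl7 (0.64 ± 0.14, adjusted p = 0.00101) also rose, and Ackr2, a receptor that scavenges chemokines, fell 2.21-fold without overlap (adjusted p = 6.44e-08). Of 17 interferon response genes 6 rose and none fell, against the same shares of all genes. Among the chemokines induced by interferon, Cxcl9 ran from 204 to 516 (median 428) with plain water and from 731 to 1872 (median 957) with the sugar drink without overlap, a 2.77-fold rise (adjusted p = 0.000395). Cxcl10 ran from 102 to 201 (median 148) with plain water and from 254 to 673 (median 332) with the sugar drink, also without overlap, a 2.32-fold rise (adjusted p = 0.000113). Gbp2, a guanylate-binding protein (1.21 ± 0.19, adjusted p = 1.97e-05), and Ifit3 (0.74 ± 0.16, adjusted p = 0.000982) rose too. In the acute phase list 2 of 19 rose: Saa3 ran from 68.7 to 239.8 (median 88.1) with plain water and from 243 to 1090.1 (median 392) with the sugar drink (1.75 ± 0.31, adjusted p = 8.33e-05) and Saa4 from 229 to 689 (median 301) with plain water and from 814 to 1175 (median 1062) with the sugar drink (1.54 ± 0.18, adjusted p = 3.54e-07), while Lcn2 (0.42 ± 0.62, adjusted p = 0.651) and Orm2 (1.16 ± 0.45, adjusted p = 0.0517) varied too much between samples to pass.

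Macrophage genes did not move as a block. Lgals3, galectin 3, ran from 56.8 to 99.0 (median 69.5) with plain water and from 147 to 477 (median 359) with the sugar drink without overlap (1.75 ± 0.18, adjusted p = 5.31e-08). Gpnmb, a glycoprotein of lipid-loaded macrophages, ran from 9.56 to 56.3 (median 29.5) with plain water and from 23.9 to 478 (median 176) with the sugar drink (1.64 ± 0.31, adjusted p = 0.000239). Yet Trem2, the receptor that defines these cells, did not pass (0.38 ± 0.16, adjusted p = 0.0752), and Cd9 fell (-0.68 ± 0.16, adjusted p = 0.00196). In that list 3 of 9 rose and 1 fell, and the summed intensity of its members ran from 1901 to 3544 with water and from 1252 to 4279 with sugar. Of 12 resident Kupffer cell markers 2 rose and 2 fell, near the shares of all genes (16.6% and 14.0%). Their sums were 5815 to 8888 with water and 6167 to 10220.2 with sugar. Vsig4 (-0.03 ± 0.12, adjusted p = 0.874) and Clec4f (-0.29 ± 0.11, adjusted p = 0.0544), which define Kupffer cells, did not pass, C1qa fell (-0.47 ± 0.11, adjusted p = 0.00142), and the Cd163 and Timd4 probes were above noise on at most 6 of the 12 arrays. Of 7 lymphocyte and neutrophil markers none passed, with sums of 125 to 472 and 134 to 375. In whole liver, fewer or more cells of a type and less or more RNA per cell cannot be told apart.

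**Figure D4:**
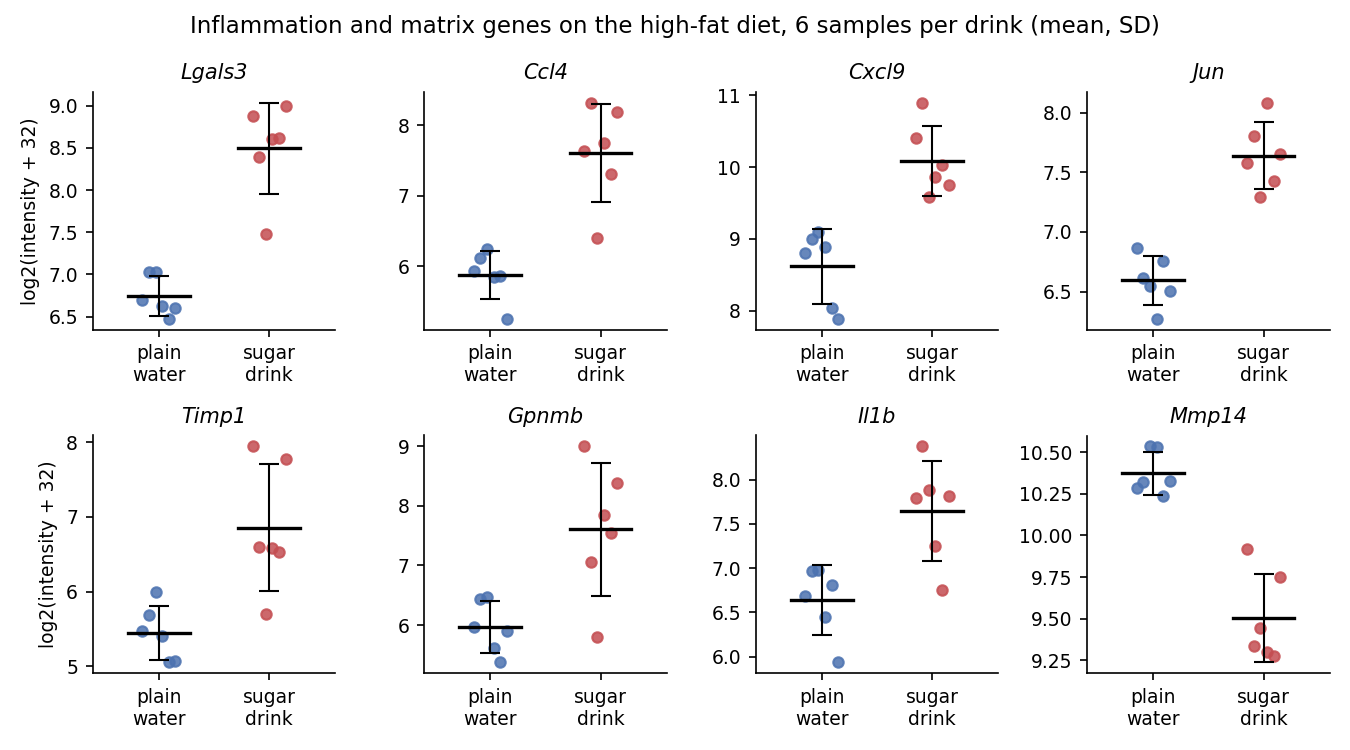
Intensity plus 32 in each sample is plotted on a log2 axis for 8 genes of inflammation and matrix in the high-fat group (plain water) and the high-fat high-sugar group, with bars at the group mean of the log2 values and whiskers of 1 SD (n = 6). Lgals3, Ccl4, Cxcl9 and Jun are higher with sugar without overlap, Timp1, Gpnmb and Il1b are higher at the mean with overlap, and Mmp14 is lower in all 6 sugar samples.

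Fibrosis and stellate cell genes rose in 6 of 18 cases and fell in 1 (16.6% and 14.0% of all genes). Timp1, the inhibitor of matrix proteases, ran from 1.20 to 31.9 (median 11.3) with plain water and from 19.8 to 215 (median 64.4) with the sugar drink (1.41 ± 0.24, adjusted p = 6.33e-05), and its second probe rose by 1.40 ± 0.25, adjusted p = 8.21e-05. Col1a1, a chain of the main scar collagen, rose on a probe that was above noise on 4 of 6 water arrays (0.71 ± 0.19, adjusted p = 0.00464). Tgfbi, a matrix protein induced by TGF beta, rose without overlap (0.53 ± 0.10, adjusted p = 0.000161). Mmp13, a collagenase, went from a median of 4.73 to 54.0 (1.20 ± 0.16, adjusted p = 2.00e-06), but its second probe gave -0.06 ± 0.08, adjusted p = 0.573. Acta2, the actin of activated stellate cells, did not pass (0.61 ± 0.27, adjusted p = 0.0810), and Mmp14, a membrane-bound matrix protease, ran from 1173 to 1452 (median 1249.7) with plain water and from 589 to 935 (median 639.6) with the sugar drink (-0.87 ± 0.10, adjusted p = 4.77e-07), a fall without overlap that its second probe did not share (-0.11 ± 0.08, adjusted p = 0.316). The list summed to 6784 to 9471 with water and 7289.9 to 10936 with sugar.

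Markers of sinusoidal endothelium were lower in 4 of 12 cases and higher in none (14.0% and 16.6% of all genes). Gpr182, an orphan receptor of these cells, ran from 397 to 436 (median 411) with plain water and from 193 to 249 (median 216) with the sugar drink without overlap (-0.83 ± 0.08, adjusted p = 2.08e-08). The scavenger receptor gene Stab2 fell without overlap (-0.58 ± 0.09, adjusted p = 1.04e-05), with Stab1 on 2 of its 3 probes (-0.51 ± 0.12, adjusted p = 0.00264) and Eng (-0.28 ± 0.08, adjusted p = 0.0100), while Clec4g (-0.03 ± 0.08, adjusted p = 0.818) and Pecam1 (-0.15 ± 0.09, adjusted p = 0.204) did not pass. The 12 markers summed to 6339.9 to 7569.5 with water and 5597 to 6964 with sugar. Among 7 pancreatic, adipocyte and erythroid markers 2 rose: Amy2a5, the pancreatic amylase, ran from 2164 to 2877 (median 2548) with plain water and from 3668 to 5361 (median 4593) with the sugar drink (0.83 ± 0.09, adjusted p = 8.78e-08) and Alas2, the erythroid haem synthesis enzyme, from 463 to 655 (median 520.2) with plain water and from 652 to 923 (median 803) with the sugar drink (0.54 ± 0.11, adjusted p = 0.000704). The erythroid globin genes Hbb-bs (0.08, adjusted p = 0.714) and Hbb-bt (-0.05, adjusted p = 0.789) did not pass. The part of such other tissues in the results was not tested.

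Genes that dispose of nitrogen fell more often than they rose. Cps1, which makes carbamoyl phosphate for the urea cycle, ran from 9072 to 13327 (median 9987) with plain water and from 5319 to 8177 (median 6967) with the sugar drink without overlap (-0.59 ± 0.12, adjusted p = 0.000652). Asl, argininosuccinate lyase, ran from 2694 to 6940.2 (median 4467) with plain water and from 1665 to 3094 (median 1893) with the sugar drink (-1.09 ± 0.19, adjusted p = 8.10e-05). Ass1, argininosuccinate synthase (-0.43 ± 0.11, adjusted p = 0.00510), and Arg1, arginase (-0.57 ± 0.13, adjusted p = 0.000901), fell as well. These 4 urea cycle enzymes were the members of the periportal list that fell, and the further probes of Cps1, Asl and Arg1 also fell. In a separate list of 16 transport, catabolic and cofactor genes around the cycle 6 fell and 3 rose (3 and 2 without replicate 5 of both groups). Nags, which makes the activator of Cps1, fell (-0.45 ± 0.13, adjusted p = 0.00928), and Hgd and Hpd, of tyrosine breakdown, fell by 0.53 and 0.53 on the log2 scale (adjusted p = 2.89e-05 and 0.000673). Aass, which opens lysine breakdown, fell on 1 of its 2 probes (-0.85 ± 0.21, adjusted p = 0.00275). Cbs, of transsulfuration, fell on both probes (-0.56 ± 0.09, adjusted p = 6.32e-05). By the brightest probes it was the only 1 of 15 methionine and one-carbon genes to fall, while 2 rose. Dimmer probes of Gnmt (-1.002), Ahcy (-0.708), Mthfd1 (-0.505), Aldh1l1 (-0.412) and Shmt1 (-0.307) also passed as lower (adjusted p = 0.000203 to 0.0450). The brightest probes of these genes did not pass, nor did another dimmer probe of Gnmt. Glud1, glutamate dehydrogenase, rose on 2 of its 3 probes (0.60 ± 0.11, adjusted p = 0.000200), as did Prodh, of proline breakdown, on 1 of 2 probes (0.80 ± 0.16, adjusted p = 0.000366), and Hibadh, of valine breakdown, 1.54-fold (adjusted p = 3.61e-06).

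Secreted plasma proteins went both ways. Of 20 coagulation and complement genes 8 rose and 4 fell (7 and 2 without replicate 5 of both groups). Mbl2, a mannose-binding lectin, ran from 843 to 1489.7 (median 1288) with plain water and from 1607 to 2383 (median 2131) with the sugar drink without overlap (0.79 ± 0.11, adjusted p = 4.80e-06), and Serpind1, heparin cofactor II, rose without overlap (0.64 ± 0.09, adjusted p = 6.98e-06). C8b, a component of the membrane attack complex, ran from 3188 to 4803 (median 4197) with plain water and from 1107 to 2806 (median 2245) with the sugar drink without overlap (-0.98 ± 0.16, adjusted p = 2.57e-05), and C6, of the same complex and counted here with male-biased genes, fell too (-0.88 ± 0.22, adjusted p = 0.00367). F5, coagulation factor V, rose on 1 of its 2 probes (0.86 ± 0.08, adjusted p = 2.07e-08). Of 13 iron and haem genes 5 rose and 2 fell. Ftl1, the ferritin light chain, ran from 517 to 795 (median 630.4) with plain water and from 1016 to 1877 (median 1230.5) with the sugar drink without overlap (1.01 ± 0.13, adjusted p = 1.28e-06). Hamp, the iron hormone hepcidin, ran from 274 to 2265 (median 747) with plain water and from 944 to 2468 (median 1814) with the sugar drink (1.19 ± 0.34, adjusted p = 0.00960), Slc40a1, the iron exporter that hepcidin blocks, rose without overlap (0.73 ± 0.12, adjusted p = 4.99e-05), and Hjv, an upstream activator of hepcidin, fell on 1 of its 2 probes (-0.41 ± 0.07, adjusted p = 0.000126). Hamp and its near-copy Hamp2 may share probe signal.

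Cell division genes gave no common direction. Cdc20, an activator of the anaphase-promoting complex, ran from 20.3 to 207 (median 107) with plain water and from 11.2 to 33.2 (median 19.6) with the sugar drink (-1.28 ± 0.25, adjusted p = 0.000275), and Birc5, survivin, from 44.1 to 180.4 (median 97.7) with plain water and from 21.8 to 41.3 (median 29.2) with the sugar drink (-1.03 ± 0.18, adjusted p = 0.000114). All 3 further probes of Cdc20 and both of Birc5 fell, and Mcm2, a replication helicase subunit, rose (0.42 ± 0.09, adjusted p = 0.000851). In all 2 of 11 rose and 2 fell, near the shares of all genes (16.6% and 14.0%). Sex-biased genes set by growth hormone changed mainly toward lower values in the male-biased list, where 4 of 15 fell and 1 rose. The 4 that fell include C6, so not all of the male-biased genes named next are on that list. Cyp4a12b, a male-biased fatty acid hydroxylase, ran from 1112 to 2678 (median 1632) with plain water and from 100.3 to 1155 (median 360.2) with the sugar drink (-2.04 ± 0.42, adjusted p = 0.000514), Cyp4a12a fell (-0.92 ± 0.30, adjusted p = 0.0193) and lost the call without high-fat high-sugar sample 1 (adjusted p = 0.0651), Elovl3, which elongates saturated fatty acids, fell (-0.66 ± 0.19, adjusted p = 0.0110), and Mup21, a major urinary protein, fell 1.74-fold (adjusted p = 0.00166). The near-identical Cyp4a12 copies and urinary protein genes share probe sequence. Of 9 female-biased genes 2 rose (Cyp2b9 and Cyp2b13) and 2 fell (A1bg and Cyp17a1). Pericentral genes rose in 4 of 14 cases and fell in 1, and periportal genes rose in 5 of 13 and fell in 4, so neither zone's list moved one way. Car3, carbonic anhydrase III, ran from 1525 to 7271 (median 4664) with plain water and from 7167 to 12887 (median 9547) with the sugar drink (1.25 ± 0.25, adjusted p = 0.000395), and Hsd11b1, which regenerates glucocorticoids, rose without overlap (0.77 ± 0.08, adjusted p = 8.78e-08) on all 3 of its probes.

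Ribosomal protein, proteasome and respiratory chain genes gave no common direction. Of 17 cytosolic ribosomal protein genes 6 rose and 2 fell (median log2 difference 0.08), of 20 proteasome genes 4 rose and 4 fell (-0.06), and of 23 nuclear-encoded respiratory subunits 6 rose and 4 fell (0.01, with 3 and 2 called without replicate 5 of both groups). Car3, Tspan31, a tetraspanin gene that fell 1.501-fold (adjusted p = 5.52e-07), and Hsd11b1 were among the 12 genes with the highest deposited intensities that moved by at least 1.5-fold.

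To ask whether the drink acted differently on the 2 diets, its effect on the high-fat diet was compared with that on the normal diet by an interaction term in the same model. On the normal diet 3209 genes changed with the drink (28.9%). The interaction passed for 275 genes (2.47%), 129 with a more positive difference on the high-fat diet and 146 with a more negative one (161 and 116 after cyclic loess normalisation of the deposited values). Of these 275, 105 had changed with sugar on the high-fat diet and not on the normal diet (52 up, 53 down), 117 only on the normal diet, 25 on both in the same direction and 28 on both in opposite directions. Array weights raised the interaction count to 453, and leaving out high-fat high-sugar sample 4 lowered it to 161.

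Scd1, Elovl6 and Acacb fell on both diets. On the normal diet their log2 differences were -2.50 ± 0.29, adjusted p = 6.59e-07 for Scd1, -1.01 ± 0.20, adjusted p = 0.000442 for Elovl6 and -1.45 ± 0.14, adjusted p = 5.08e-08 for Acacb, and the interaction did not pass for any of the 3 (adjusted p = 0.303, adjusted p = 0.612 and adjusted p = 0.458). Aatk, Cyp2c50 and Hsp90b1 rose on both diets, by 2.18 ± 0.14, adjusted p = 6.16e-11, by 1.79 ± 0.16, adjusted p = 9.35e-09 and by 0.91 ± 0.18, adjusted p = 0.000416 on the normal diet. For these genes a difference between the diets was not detected, which does not show that the effects were equal.

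**Figure D5:**
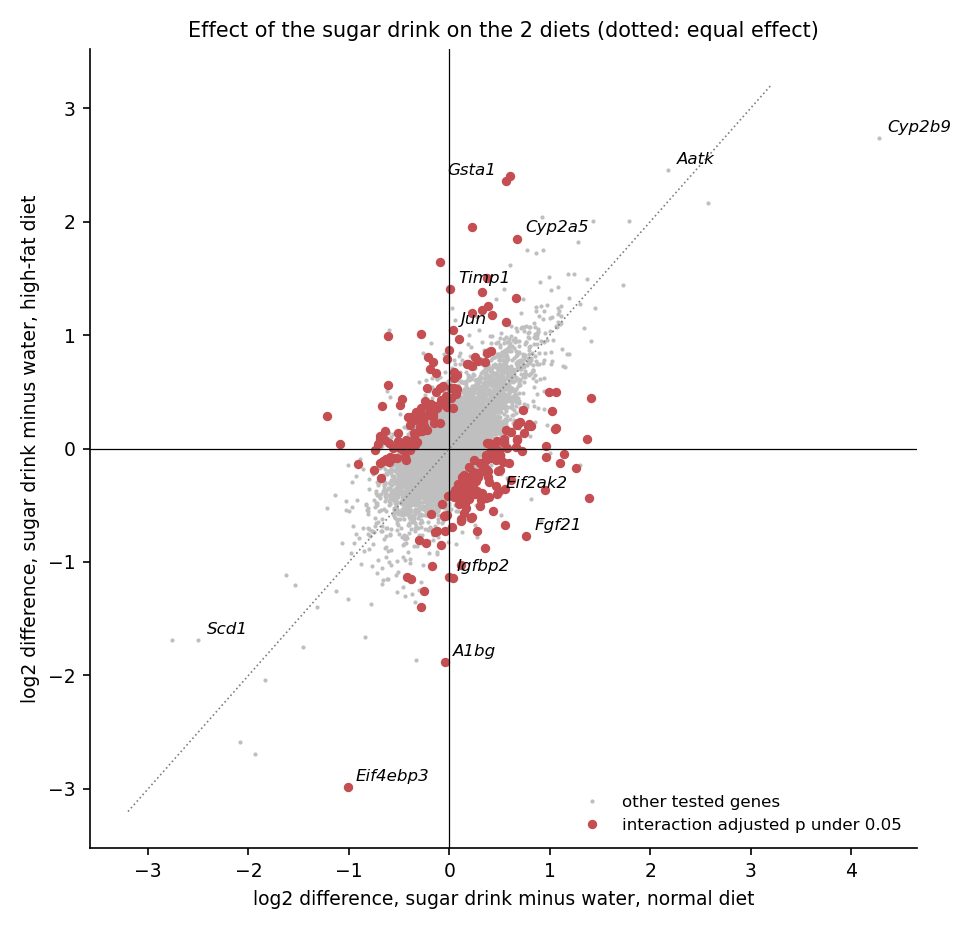
The log2 difference with sugar on the normal diet (x axis) is plotted against that on the high-fat diet (y axis), sugar minus water on both, for 11115 genes. The 275 genes whose interaction passed are filled, and named genes are labelled. Fgf21 and Eif2ak2 lie in the lower right quadrant, higher with sugar on the normal diet and lower with sugar on the high-fat diet.

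Fgf21 differed with the drink in opposite directions on the 2 diets. Its medians were 245 in control, 427 in high-sugar, 1121 in high-fat and 717 in high-fat high-sugar mice, so the drink went with more Fgf21 on the normal diet (0.77 ± 0.21, adjusted p = 0.00789) and less on the high-fat diet, and the interaction was -1.54 ± 0.30, adjusted p = 0.00583. Eif2ak2, the double-stranded RNA sensor PKR, showed the same pattern with medians of 264 in control, 385 in high-sugar, 520.2 in high-fat and 365 in high-fat high-sugar mice (interaction -0.87 ± 0.14, adjusted p = 0.00104). Large2, a glycosyltransferase gene (-0.99 ± 0.15, adjusted p = 0.000720), Desi2, a desumoylating isopeptidase gene (-0.77 ± 0.13, adjusted p = 0.00168), and Cox6b2, a cytochrome oxidase subunit gene (-0.63 ± 0.11, adjusted p = 0.00172), also rose with sugar on the normal diet and fell with it on the high-fat diet. Lonrf1, a ubiquitin ligase gene, fell on the normal diet and rose on the high-fat diet (1.04 ± 0.15, adjusted p = 0.000313), although its second probe did not pass there.

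Other genes with an interaction either changed on the high-fat diet and did not pass on the normal diet, or changed in the same direction on both by different amounts. Jun had medians of 117 in control, 121 in high-sugar, 63.98 in high-fat and 164 in high-fat high-sugar mice (interaction 1.01 ± 0.19, adjusted p = 0.00389), and Il1b of 84.4 in control, 62.0 in high-sugar, 75.7 in high-fat and 192 in high-fat high-sugar mice (1.29 ± 0.31, adjusted p = 0.0254). Timp1, Gpnmb and Mmp13 also had interactions, of 1.40 ± 0.34, adjusted p = 0.0254, 1.73 ± 0.45, adjusted p = 0.0366 and 0.97 ± 0.22, adjusted p = 0.0174, with normal-diet log2 differences of 0.00, -0.09 and 0.22. Igfbp2 had medians of 4537 in control, 5023 in high-sugar, 7717 in high-fat and 3161 in high-fat high-sugar mice (-1.12 ± 0.25, adjusted p = 0.0146), and Mgll, which fell on both diets, fell further on the high-fat diet (-0.71 ± 0.18, adjusted p = 0.0356). Cyp2a5 rose on both, with medians of 8409 in control, 12184 in high-sugar, 2411 in high-fat and 9309.6 in high-fat high-sugar mice (1.18 ± 0.22, adjusted p = 0.00485). The endothelial marker Gpr182 (-0.60 ± 0.11, adjusted p = 0.00401), the chemokine scavenger Ackr2 (-1.19 ± 0.17, adjusted p = 0.000268), Lad1, an anchoring filament gene (-0.86 ± 0.15, adjusted p = 0.00172), Tspan31 (-0.56 ± 0.10, adjusted p = 0.00217), Ten1 (-1.11 ± 0.22, adjusted p = 0.00577) and A1bg (-1.84 ± 0.32, adjusted p = 0.00193) had negative interactions. Bcl2l12 (-0.69 ± 0.12, adjusted p = 0.00212) and Cyp2c29 (-0.58 ± 0.10, adjusted p = 0.00168, on a dim probe) rose with sugar on both diets and less on the high-fat diet, and Cyp2c29 lost the call without high-fat sample 1 or 2 or high-fat high-sugar sample 3 or 5 (adjusted p = 0.0524 to 0.0826). The second probe of Bcl2l12 gave 0.02 ± 0.08, adjusted p = 0.863.

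The high-fat diet itself, with plain water, had moved several of these genes, and that comparison shares the 6 high-fat samples with the one described here, so the values are only set side by side. The high-fat diet's log2 difference was -1.68 ± 0.16 for Cyp2a5, 2.05 ± 0.21 for Fgf21, -0.77 ± 0.09 for Dgat2, -0.997 ± 0.13 for Srebf1, 0.67 ± 0.18 for Igfbp2 and 2.25 ± 0.22 for A1bg. With the sugar drink on the high-fat diet the same genes differed by 1.85, -0.77, 0.67, 0.93, -1.13 and -1.88. For these 6 genes the signs were opposite. The signs were the same for Cyp2b9 (high-fat diet 3.498, sugar drink 2.74), Cyp2b23 (2.244 and 2.16) and Cib3 (-1.419 and -1.69). The shared high-fat samples enter the comparisons with opposite sign, which favours opposite values. The share of all genes with opposite signs was not tested. For Dgat2 the medians were 7117 in control, 7428 in high-sugar, 4154 in high-fat and 6967 in high-fat high-sugar mice, and the interaction was 0.63 ± 0.13, adjusted p = 0.0120. For Cyp1a2 they were 3635 in control, 4965 in high-sugar, 1768 in high-fat and 4198 in high-fat high-sugar mice (0.76 ± 0.17, adjusted p = 0.0153).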

How the data were processed

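Liver RNA was hybridised to Illumina BeadChip arrays, 24 samples in 4 groups of 6. The deposited table holds 1 normalised intensity per probe and sample, on a linear scale, processed in GenomeStudio 2011.1 per the submitters' processing notes. The deposited intensities have negative values (37.7% of all) and almost the same distribution in every sample (sorted columns differ by at most 0.231), as background subtraction and quantile normalisation give. Such scaling hides a shift shared by most genes. A second, non-normalised table was not used, because its 24 sample columns match no label. Of 45281 probes, 34885 had 1 gene symbol in GEO's platform annotation, 18 had several and 10378 had none, and 34807 of the symbols were updated through RefSeq identifiers or found unchanged there.

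An array's noise limit was 1.645 times the root mean square of the values below 0. Probes above it on at least 6 arrays were kept (20216), and the brightest kept probe stood for each gene, of which 4030 had several. The limma package (3.58.1, R 4.3.3) was fitted to log2(intensity + 32) with 1 mean per group over all 24 samples and a moderated variance with an intensity trend. Contrasts were sugar drink minus water on each diet and their difference, with two-sided tests, Benjamini-Hochberg adjustment and a threshold of 0.05. The script was tested on simulated data. Array data give no read depth, so precision rests on the 6 arrays per group, and the offset understates folds of dim probes. "At least" folds set a probe below the noise limit on all arrays of a group at the lowest signal above that limit.

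The genes named, clone-type symbols such as Gm or Rik numbers left out, were the 15 largest rises, the 15 largest falls, the 10 smallest adjusted p-values, the 12 brightest genes that moved at least 1.5-fold, the 10 smallest adjusted p-values of the interaction among genes that changed on the high-fat diet, and members of gene lists described by role. The samples and lists were chosen with earlier results of these data known, and 1 list symbol (G6pc) was respelled to match the array. Other offsets (16 and 64), a floor of 16, other filters, probe averaging, cyclic loess, array weights, a replicate block and samples left out were tried as alternatives.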

Additional observations from a re-analysis of the deposited data

Results flagged for a closer look

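Among the genes described, single samples lay far from the other 5 of their group in 27 of 438 groups of 6 samples checked (6.16%), by the gap to the nearest sample relative to the group's range, and chance alone gives about 1 in 20 groups. Of these, 6 were high-fat sample 5 and 5 were high-fat high-sugar sample 5. Values are intensities, that of the single sample against the range of the other 5.

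In the high-fat group 1 sample was far below the other 5 for Cideb (5928 against 6592 to 6895) and Eif2ak2 (372 against 512 to 582) in sample 1, for Apoe (22709.6 against 24748 to 25471) in sample 2, for Igfbp2 (4848 against 7009 to 8099) and Mttp (120.1 against 200.2 to 227) in sample 3, for Aatk (32.3 against 53.0 to 65.7), Cib3 (203 against 493 to 596), Cyp2b9 (22.5 against 594 to 2198) and Tgfbi (348 against 475 to 547) in sample 5 and for Vsig4 (838 against 1209 to 1407) in sample 6. In the high-fat group 1 sample was far above the other 5 for Sel1l (327 against 223 to 255) in sample 1, for Gsta1 (18.0 against -0.840 to 4.63) and Orm2 (6252 against 396 to 1091) in sample 3 and for Cps1 (13327 against 9072 to 10478) and Egr1 (303 against 58.3 to 96.2) in sample 5.

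In the high-fat high-sugar group 1 sample was far below the other 5 for Cyp1a2 (2809 against 4076 to 4512) and Herpud1 (6122 against 9227 to 11725) in sample 1, for Atf5 (1003 against 1308 to 1501) in sample 2, for Apoe (17471 against 19188 to 19596) and Pecam1 (62.6 against 91.1 to 109) in sample 5 and for Glud1 (5132 against 5928 to 6442) in sample 6. In the high-fat high-sugar group 1 sample was far above the other 5 for Fasn (25.7 against 0.143 to 5.01) and Ugt3a2 (13996 against 11403 to 11869.5) in sample 2, for Aldh1a1 (609 against 333 to 418), Cat (837 against 465 to 525) and H2-Q5 (2617 against 1868 to 2110.1) in sample 5 and for Tspan31 (6278 against 4904 to 5211) in sample 6.

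The interaction of drink and diet passed for 34 of the genes described, and the values are the log2 difference with sugar on the high-fat diet less that on the normal diet. Genes that changed in opposite directions on the 2 diets were Fgf21 (-1.54), Large2 (-0.99), Eif2ak2 (-0.87), Desi2 (-0.77), Cox6b2 (-0.63) and Lonrf1 (1.04). Genes that changed in the same direction on both diets by different amounts were Eif4ebp3 (-1.97), Mgll (-0.71), Bcl2l12 (-0.69), Gpr182 (-0.60), Cyp2c29 (-0.58), Hsd11b1 (0.41), Ugt2b36 (0.46), Cyp1a2 (0.76) and Cyp2a5 (1.18). Genes that changed on the high-fat diet and did not pass on the normal diet were A1bg (-1.84), Ackr2 (-1.19), Acot2 (-1.14), Igfbp2 (-1.12), Ten1 (-1.11), Lad1 (-0.86), Hadha (-0.71), Atf5 (-0.58), Tspan31 (-0.56), Dgat2 (0.63), Alas2 (0.63), Mmp13 (0.97), Jun (1.01), Il1b (1.29), Timp1 (1.40), Gpnmb (1.73), Gsta1 (1.80) and Cyp2b13 (1.80). Pck1 (-0.58) rose with sugar on the normal diet alone.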

How the results depend on the processing

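Counts of changed genes with the sugar drink on the high-fat diet ran from 2967 with a floor of 16 to 3568 with array weights (3402 as reported), and from 3007 to 3279 when 1 of the 12 high-fat diet samples was left out (1661 to 1787 higher and 1333 to 1497 lower). Leaving out replicate 5 of both groups, an alternative chosen after seeing the data, gave 2678. Changes of at least 1.5-fold, which depend on how dim probes are scaled, numbered 441 with an offset of 64 and 1144 with a floor of 16, against 671, and 606 to 720 with 1 sample left out. On the normal diet leaving out 1 high-fat diet sample, which enters only the spread there, gave 3162 to 3217 changed genes. The interaction count was less stable. It was 453 with array weights (214 higher and 239 lower) against 275 (129 and 146), 179 without replicate 5 of both groups (77 higher), and 161 to 364 with 1 sample left out (72 to 164 higher and 89 to 200 lower), the lowest without high-fat high-sugar sample 4 and the highest without high-fat high-sugar sample 3. Interactions of at least 1.5-fold numbered 187 with an offset of 16, 75 with an offset of 64 and 101 to 167 with 1 sample left out. The share of higher calls was 54.1% in the high-fat comparison and 61.7% after cyclic loess, and for the interaction 46.9% and 58.1%.

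Of 219 genes described, 17 lost the call in at least 1 of 24 alternatives. A floor of 16 made the log2 differences of 17 of the genes described larger in size by over 1.5-fold (A1bg -2.93, Baat 1.38, Bhlhe40 2.38, Birc5 -1.62, Ccl4 2.47, Cdc20 -2.02, Cyp2b13 3.00, Dnajb9 1.77, Gpnmb 2.30, Gsta1 3.19, Kiss1 -2.37, Lad1 -1.85, Srebf1 1.55, Timp1 2.04, Tpm2 2.09, Ugt1a2 -3.32 and Ugt1a5 -3.39). Offsets of 16 and 64 moved those of Cyp2b13 (3.21 and 1.71) and Gsta1 (3.08 and 1.69) by over 1.5-fold, and averaging a gene's probes those of Acot2 (-0.37), Gsta1 (1.66), Lpin2 (-0.39) and Mmp13 (0.57), with the direction and the call kept in each case. A floor of 16 ended the calls of Cyp2b10, Cyp2c29, Herpud1, Hyou1, Lonrf1, Me1 and Vldlr, and leaving out replicate 5 of both groups those of Abhd5, Acadm, Cyp2c29, Dbp, Herpud1, Me1, Nags, Nr1i2, P4hb, Usp2 and Vldlr. Averaging a gene's probes ended the call of Tpi1 and turned Slc2a2 from -0.04 to 0.34 on the log2 scale (adjusted p = 0.0282), since its probes differ. Same-numbered samples of the high-fat groups did not deviate together (correlations of -0.16 to 0.14, over 0.1 in 1 of 6 numbers, and 1 of 6 samples closest to its own number), so the numbers were not read as pairs. With the replicate number as a block 3357 genes changed, the interaction passed for 264, and Herpud1 lost the call. Background correction from the non-normalised table and the slide as a block were not run, because its columns match no sample label. The limit of the measurement is signal over background: of the changed genes, 96 were below the noise limit on all high-fat arrays and 23 on all high-fat high-sugar arrays.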
